A study of Mus musculus with 9 samples.

Results

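The genes described here are 10 members of the BCL2 family, the proteins that decide whether the outer membrane of the mitochondrion is opened during apoptosis. They are the rows of the deposited gene count table named Bcl2, Bcl2l1, Bcl2l2, Mcl1, Bax, Bak1, Bid, Bcl2l11, Bbc3 and Pmaip1, chosen by name from 56748 genes in all, and all 10 had enough counts to be tested among 15502 genes. They were measured by RNA sequencing in wild-type (WT) mouse chondrocytes, the cells of cartilage, freed from knee cartilage with collagenase and grown in serum-containing medium. There were 3 libraries each of cells given interleukin-1β (IL-1β, a cytokine that drives inflammation and matrix loss in cartilage) plus recombinant SFRP5 (secreted frizzled-related protein 5, which binds Wnt ligands outside the cell), of cells given IL-1β alone, and of control cells. The labels give no dose, treatment time, age or strain, no group received SFRP5 alone, and separate animals or cultures are not stated for the libraries of a group. The p-values therefore measure spread among libraries only, and that spread may be technical.

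Proteins of this family act on one another. The pro-survival members (BCL2, BCL-XL from Bcl2l1, BCL-W from Bcl2l2, and MCL1) bind and hold back the effectors BAX and BAK, which otherwise form pores in the outer mitochondrial membrane and release cytochrome c. The BH3-only members, here BID, BIM from Bcl2l11, PUMA from Bbc3 and NOXA from Pmaip1, carry stress signals to the others, either by occupying the pro-survival proteins or by activating the effectors directly. Loss of chondrocytes by apoptosis is a described feature of osteoarthritic cartilage. Transcript levels are measured here, not protein, cleavage or cell death.

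The libraries held 15795985 to 20688963 counts in all. In their markers the cells given IL-1β stood far from control cells: 11 chondrocyte markers, among them Col2a1, Acan and Sox9, summed to 28400 to 29800 CPM (counts scaled to a common library size) with IL-1β and SFRP5, 22700 to 23900 CPM with IL-1β alone and 110000 to 112000 CPM in control libraries. Most of this sum was Col2a1, with means of 20770, 15410 and 74500 CPM. By the edgeR test described below, 5 of the 11 were higher with SFRP5 than with IL-1β alone. The other 6, Sox9 among them (adjusted p = 0.892), were not called, where 15.6% of all tested genes were higher and 15.7% lower. The 8 macrophage markers summed to 7.43 to 9.63 CPM with IL-1β and SFRP5, 9.08 to 10.7 CPM with IL-1β and 3.84 to 4.37 CPM in control, with Fcgr1 at 0 counts in the IL-1β group. Of these, Cd68 had means of 6.31, 6.80 and 1.46 CPM in the same order of groups, and Csf1r of 0.915, 2.27 and 1.51 CPM. The 7 neutrophil markers summed to 4.83 to 7.22, 5.83 to 7.21 and 0 to 0.152 CPM in that order. Camp had means of 4.48, 5.20 and 0.0169 CPM, and S100a8 of 1.40, 1.48 and 0 CPM. The other 5, Mpo and Elane among them, had 0 counts in both treated groups. S100a9, Ly6g and Ngp had 0 counts in all 9 libraries. The 5 endothelial markers summed to 2.54 to 3.64, 3.75 to 4.68 and 0.768 to 1.11 CPM, the 4 osteoblast markers to 2290 to 2480, 1840 to 1950 and 5220 to 5400 CPM, and the 7 lymphocyte markers to no more than 0.135 CPM in any library. Nearly all of the osteoblast sum was Col1a1, with means of 2376, 1892 and 5311 CPM. In the same order, the means were 0.160, 0.118 and 11.6 CPM for Sp7, 0.169, 0.250 and 8.55 CPM for Ibsp, and 0.317, 0.389 and 1.62 CPM for Bglap. The part of these shifts in the results below was not tested, and in bulk RNA fewer cells of a type and less RNA per cell cannot be told apart.

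The start sites of these genes were read from RefSeq's promoter windows for the mouse genome, build GRCm38.p6, each holding 250 bases before and 50 bases after a start. Windows were found for 9 of the 10 genes, 14 windows in all. The following 4 are shown because they belong to the member that SFRP5 moved most (Bid), to a pair of BH3-only genes that share a forkhead (FOXO) motif (Bcl2l11 and Bbc3), and to a pro-survival gene that holds a κB decamer (Bcl2l1). Capitals mark the motif named with each window, on either strand, and each sequence runs 5′ to 3′ along the gene's own strand.
Bid, GC box, chr6:120916775-120917074, minus strand: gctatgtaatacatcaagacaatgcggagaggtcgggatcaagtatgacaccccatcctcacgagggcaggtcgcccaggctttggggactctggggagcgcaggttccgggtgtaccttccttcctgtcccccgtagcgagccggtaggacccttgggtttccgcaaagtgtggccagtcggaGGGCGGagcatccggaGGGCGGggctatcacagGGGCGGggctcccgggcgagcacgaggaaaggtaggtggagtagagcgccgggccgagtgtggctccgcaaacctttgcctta
Bcl2l11, FOXO, chr2:128125788-128126087, plus strand: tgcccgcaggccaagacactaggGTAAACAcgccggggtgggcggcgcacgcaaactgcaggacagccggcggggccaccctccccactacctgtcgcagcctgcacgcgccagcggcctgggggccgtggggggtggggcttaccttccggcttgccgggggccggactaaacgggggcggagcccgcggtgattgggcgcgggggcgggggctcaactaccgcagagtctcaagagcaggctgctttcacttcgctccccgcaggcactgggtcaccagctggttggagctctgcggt
Bbc3, FOXO, chr7:16310011-16310310, plus strand: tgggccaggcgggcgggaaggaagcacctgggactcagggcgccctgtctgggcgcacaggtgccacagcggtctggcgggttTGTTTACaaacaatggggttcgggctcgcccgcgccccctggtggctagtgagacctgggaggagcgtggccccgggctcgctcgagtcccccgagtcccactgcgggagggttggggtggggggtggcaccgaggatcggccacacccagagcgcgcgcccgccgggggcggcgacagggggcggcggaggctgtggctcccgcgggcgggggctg
Bcl2l1, κB decamer, chr2:152830668-152830967, minus strand: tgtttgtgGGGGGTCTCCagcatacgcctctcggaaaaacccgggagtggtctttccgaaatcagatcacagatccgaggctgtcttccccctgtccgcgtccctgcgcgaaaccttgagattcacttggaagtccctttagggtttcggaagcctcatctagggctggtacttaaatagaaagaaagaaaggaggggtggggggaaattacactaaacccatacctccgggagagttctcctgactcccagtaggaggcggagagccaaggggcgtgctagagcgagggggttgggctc

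The GC box GGGCGG was found 3 times in the Bid window and in 10 of the 14 windows, which belong to 7 genes, against 35.7% of all 32851 windows in the table. The FOXO motif GTAAACA was found in 1 window each of Bcl2l11 and Bbc3, and in 3.65% of all windows. The κB decamer was found in 1 window each of Bcl2l1 and Bbc3, and in 8.46% of all windows. The AP-1 motif TGANTCA, the cyclic AMP response element TGACGTCA, the ATF4-type element TGATGNAAT and the full p53 site were in none of the 14 windows. Their shares of all windows were 7.81%, 1.79%, 0.965% and 0.00913%. Both strands were searched. The capitals shown overlap no match of another of these motifs. A match says that these letters are present, not that a factor binds there.

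Per unit of length, Mcl1 and Bax were the most abundant members in all 3 groups and Bcl2 the least abundant. These levels are RPKM, the CPM divided by the gene length in the table in kilobases. In control libraries Mcl1 was at 34.4 ± 1.33 RPKM and Bax at 32.8 ± 0.838 RPKM (mean ± SD, n = 3), and their libraries overlapped. Below them came Bak1 at 15.7, Bcl2l1 at 13.1, Bcl2l2 at 10.3, Bbc3 at 8.25, Bid at 2.36, Pmaip1 at 0.991, Bcl2l11 at 0.793 and Bcl2 at 0.663 RPKM. In that order the libraries of Bcl2l2 and Bbc3, and those of Pmaip1 and Bcl2l11, also overlapped, and the other neighbours did not. With IL-1β alone no pair of neighbours overlapped, and Bak1 stood sixth, below Bcl2l1, Bcl2l2 and Bbc3. With IL-1β and SFRP5, Bax at 61.1 ± 3.59 RPKM overlapped Mcl1 at 60.6 ± 1.89 RPKM, and Pmaip1 at 4.46 ± 0.317 RPKM overlapped Bid at 3.91 ± 0.271 RPKM.

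**Figure D1:**
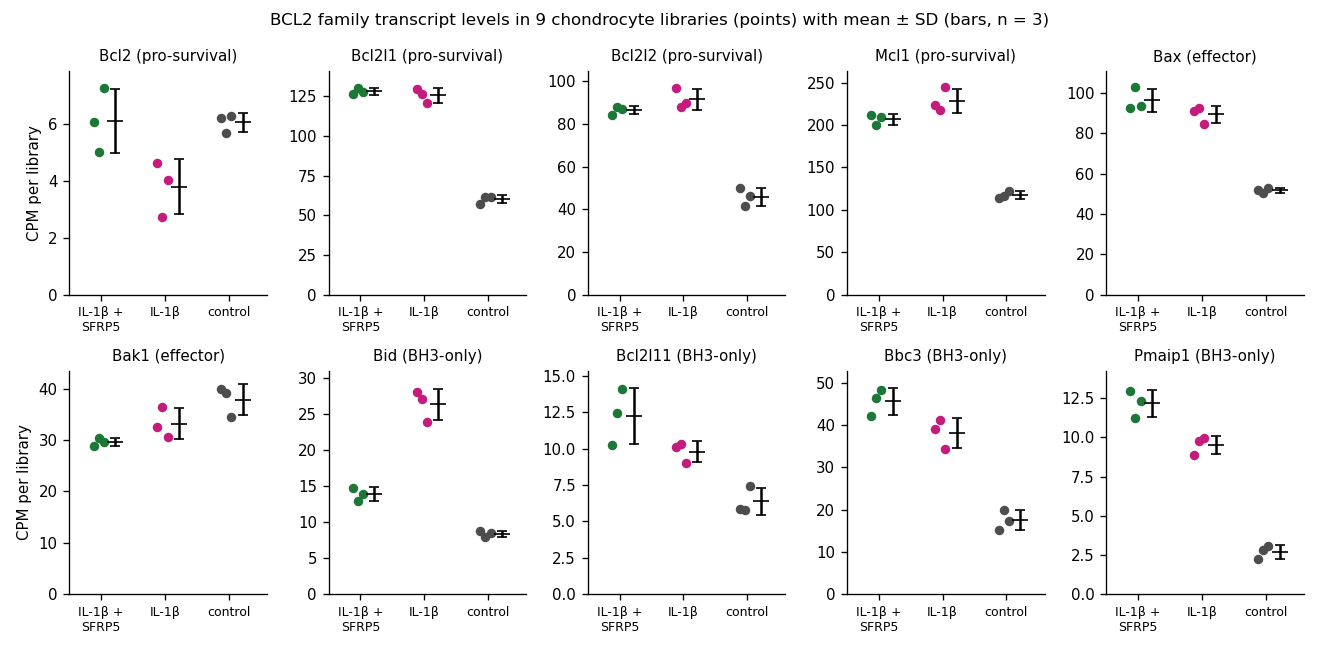
Each panel plots 1 BCL2 family gene, with CPM in each library on the vertical axis from 0 and the groups side by side. Points are libraries and bars are mean ± SD of 3. Bid is highest with IL-1β alone and intermediate with SFRP5, Bcl2 is lowest with IL-1β alone, and the 8 genes that rose with IL-1β lie above control in every library.

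Cells given IL-1β were first set against control cells. IL-1β raised 8 of the 10 and lowered Bcl2 and Bak1. The rise took in members of opposite action: the pro-survival genes Bcl2l1, Bcl2l2 and Mcl1 rose by 2.09-, 2.00- and 1.94-fold, the effector Bax by 1.73-fold, and the BH3-only genes Pmaip1 and Bid by 3.51-fold and 3.15-fold. Differences between genes in the size of the rise were not tested. By edgeR's quasi-likelihood test over all genes, with Benjamini-Hochberg adjustment and a threshold of 0.05, all 10 were called. In this comparison 78.9% of all tested genes were called, 38.5% higher and 40.4% lower, so that a call by itself says little about a gene here. The median log2 change was 0.98 over the 10 genes and −0.03 over all tested genes. Of the 10, 4 were called and at least 2-fold changed, all of them higher, against 39.7% of all tested genes in either direction and 18.4% higher. Bcl2l2 was just under that size at 1.999-fold, and the count was 2 with upper-quartile scaling and 6 without IL-1β library 2. The libraries of the groups did not overlap for 9 of the 10, against 80% of all tested genes.

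Among the pro-survival genes, Bcl2l1 (ENSMUSG00000007659) had 129.8, 126.6 and 120.5 CPM in IL-1β libraries, against 57.4, 61.4 and 61.8 CPM in control libraries. Every IL-1β library was above every control library, and the log2 change was 1.06 ± 0.05 (SE, edgeR, adjusted p = 1.09e-16). Bcl2l2 (ENSMUSG00000089682) had 97.0, 87.7 and 89.8 CPM with IL-1β, against 49.8, 41.5 and 46.2 CPM in control, a log2 change of 1.00 ± 0.06 (edgeR, adjusted p = 2.71e-14). Mcl1 (ENSMUSG00000038612), whose protein is short-lived and must be made continually, had 223.7, 217.7 and 244.3 CPM with IL-1β, against 114.0, 116.0 and 122.7 CPM in control. Its log2 change was 0.96 ± 0.05 (edgeR, adjusted p = 8.64e-16), and neither Bcl2l2 nor Mcl1 overlapped between the groups.

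Bcl2 (ENSMUSG00000057329), the founding member of the family, went the other way. It had 4.62, 2.73 and 4.04 CPM in IL-1β libraries, against 6.21, 5.69 and 6.30 CPM in control libraries, with all IL-1β libraries below all control libraries. These levels rest on 192 counts over the 3 IL-1β libraries and 373 over the control libraries. The log2 change was −0.67 ± 0.18 (edgeR, adjusted p = 0.00182), so that Bcl2 was at 0.627 of its control level.

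The effectors parted. Bax (ENSMUSG00000003873) had 90.8, 92.4 and 84.7 CPM in IL-1β libraries, against 51.9, 50.3 and 52.9 CPM in control libraries, without overlap and with a log2 change of 0.79 ± 0.05 (edgeR, adjusted p = 4.72e-13). Bak1 (ENSMUSG00000057789), which can replace BAX as a pore former, had 32.6, 36.4 and 30.5 CPM with IL-1β, against 40.0, 39.1 and 34.5 CPM in control. These values overlapped, and the log2 change of −0.19 ± 0.07 was small (edgeR, adjusted p = 0.0163). The call of Bak1 was lost without control library 1 (adjusted p = 0.0831) or 2 (0.0651), without IL-1β library 1 (0.0829) or 3 (0.179, log2 change −0.11), and in DESeq2 (0.0565), while upper-quartile scaling gave a log2 change of −0.34. Bax passed the threshold in all 16 alternative settings run.

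The 4 BH3-only genes among the 10 rose. Pmaip1 (ENSMUSG00000024521), which encodes NOXA, a partner of MCL1, had 8.87, 9.75 and 9.96 CPM in IL-1β libraries, against 2.22, 2.80 and 3.10 CPM in control libraries. Its log2 change of 1.81 ± 0.15 was the largest of the 10 (edgeR, adjusted p = 2.99e-11), and 78.5% of all tested genes changed less in either direction. Bid (ENSMUSG00000004446), which caspase-8 cleaves to link death receptors to mitochondria, had 28.1, 27.1 and 24.0 CPM with IL-1β, against 8.74, 7.99 and 8.43 CPM in control, a log2 change of 1.65 ± 0.09 (edgeR, adjusted p = 1.765e-14). Bbc3 (ENSMUSG00000002083), which encodes the p53 target PUMA, had 39.0, 41.2 and 34.3 CPM with IL-1β, against 15.3, 19.96 and 17.4 CPM in control, a log2 change of 1.12 ± 0.09 (edgeR, adjusted p = 1.11e-11). Bcl2l11 (ENSMUSG00000027381) had 10.1, 10.3 and 8.995 CPM with IL-1β, against 5.86, 5.78 and 7.47 CPM in control, a log2 change of 0.62 ± 0.14 (edgeR, adjusted p = 0.000269). In all 4 genes every IL-1β library was above every control library.

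The span of Bid overlaps that of its relative Bcl2l13 on the opposite strand, over 913 of the 24924 bases of Bid in the table's positions. The sources used here do not give the strand setting of the counting, and if strand was ignored, reads in the overlap cannot be told apart. Bcl2l13 was at 52.1 CPM with IL-1β and 39.4 CPM in control, a log2 change of 0.40 ± 0.05 (edgeR, adjusted p = 2.87e-07). The whole span of Bak1 lies within that of Ggnbp1 on the opposite strand, which had 21 to 66 counts per library. Gm20521, which covers 4794 of the 4858 bases of Bcl2l2 on the same strand, had 0 to 2 counts per library, and how the authors' estimates divided shared reads was not tested.

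**Figure D2:**
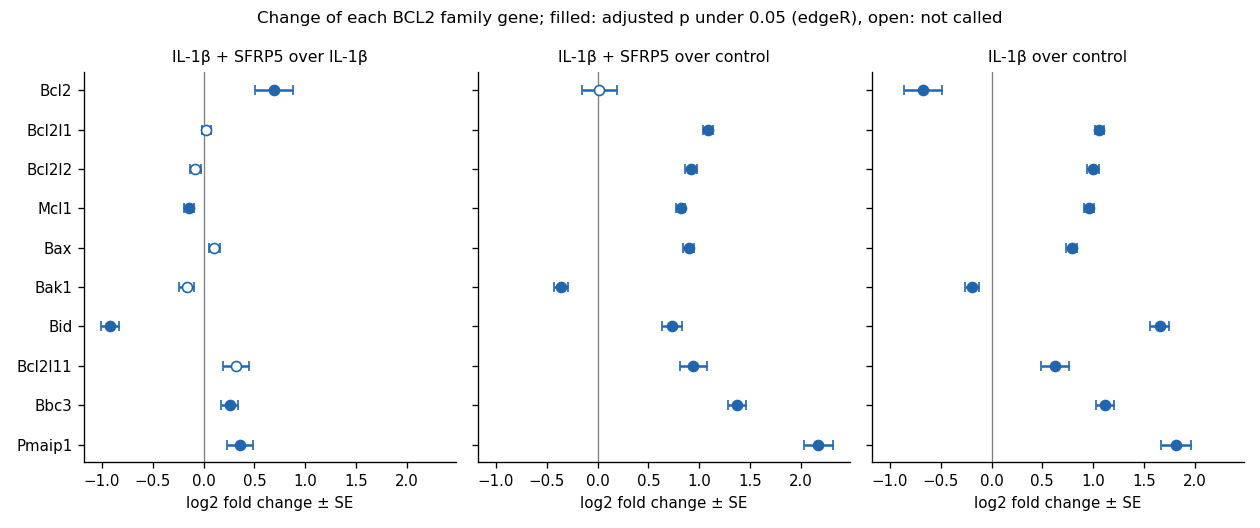
The log2 fold change ± SE of each BCL2 family gene is on the horizontal axis, 1 panel per comparison, with filled points for an adjusted p under 0.05. With SFRP5 over IL-1β alone, Bcl2 at 0.69 and Bid at −0.92 stand farthest from 0.

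The second comparison asked what SFRP5 added to IL-1β did. Bid fell to 0.528 of its level with IL-1β alone, Bcl2 was 1.61-fold higher, and the remaining 8 genes were at most 1.28-fold higher or lower. By the same edgeR test 5 of the 10 were called: Bcl2, Bbc3 and Pmaip1 were higher with SFRP5, and Bid and Mcl1 were lower. In this comparison 31.3% of all tested genes were called, 15.6% higher and 15.7% lower. The count of members called and at least 2-fold changed was 0, against 4.12% of all tested genes, 2.21% higher and 1.91% lower. The libraries did not overlap for 7 of the 10, against 40.8% of all tested genes. The median size of the log2 change, without its sign, was 0.21 over the 10 genes and 0.20 over all tested genes.

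Bid had 14.8, 12.9 and 14.0 CPM in libraries with IL-1β and SFRP5, against 28.1, 27.1 and 24.0 CPM in libraries with IL-1β alone. The groups were far apart, and the level with SFRP5 lay between those of IL-1β and of control. The log2 change was −0.92 ± 0.09 (edgeR, adjusted p = 9.3e-09), and 92.7% of all tested genes changed less in either direction. The call held in all 16 alternative settings, with log2 changes from −0.98 to −0.87. The overlapping Bcl2l13 was at 47.8 CPM with SFRP5 and 52.1 CPM with IL-1β alone, a log2 change of −0.13 ± 0.05 that was not called (edgeR, adjusted p = 0.0822).

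Bcl2 had 6.07, 5.01 and 7.26 CPM with IL-1β and SFRP5, against 4.62, 2.73 and 4.04 CPM with IL-1β alone. All libraries with SFRP5 were above all those without it, and the log2 change was 0.69 ± 0.19 (edgeR, adjusted p = 0.00574). The counts behind it were 323 over the libraries with SFRP5 and 192 over those with IL-1β alone. Without IL-1β library 2, the lowest of the 9 for this gene, the log2 change was 0.50 and just missed the threshold (adjusted p = 0.0506).

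The other pro-survival genes changed little. Mcl1 had 211.6, 199.6 and 209.8 CPM with IL-1β and SFRP5, against 223.7, 217.7 and 244.3 CPM with IL-1β alone, a log2 change of −0.14 ± 0.05 (edgeR, adjusted p = 0.0204). The groups did not overlap, but the call was lost without IL-1β library 3 (log2 change −0.09, adjusted p = 0.149) or SFRP5 library 2 (adjusted p = 0.0984). Bcl2l1 had 126.1, 130.3 and 127.9 CPM with SFRP5, against 129.8, 126.6 and 120.5 CPM with IL-1β alone, and overlapped (log2 change 0.03, edgeR, adjusted p = 0.696). The 95% interval of the log2 change (normal approximation) ran from −0.06 to 0.12. Bcl2l2 overlapped as well, with 84.2, 88.1 and 87.2 CPM against 97.0, 87.7 and 89.8 CPM with IL-1β alone, and its 95% interval ran from −0.19 to 0.03 (edgeR, adjusted p = 0.292).

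Of the BH3-only genes other than Bid, Bbc3 and Pmaip1 were higher with SFRP5. Bbc3 had 42.2, 46.4 and 48.2 CPM with IL-1β and SFRP5, against 39.0, 41.2 and 34.3 CPM with IL-1β alone, without overlap and with a log2 change of 0.26 ± 0.08 (edgeR, adjusted p = 0.016). The call of Bbc3 was lost without IL-1β library 3 (adjusted p = 0.101) or SFRP5 library 3 (0.0785). Pmaip1 had 13.0, 11.3 and 12.3 CPM with SFRP5, against 8.87, 9.75 and 9.96 CPM with IL-1β alone, a log2 change of 0.36 ± 0.12 (edgeR, adjusted p = 0.0287). It was lost without IL-1β library 1 (0.105) or 2 (0.0547), without SFRP5 library 1 (0.121) or 3 (0.0688), and in DESeq2 (0.059). Bcl2l11 had 10.3, 12.4 and 14.1 CPM with SFRP5, against 10.1, 10.3 and 8.995 CPM with IL-1β alone. It overlapped and missed the threshold (log2 change 0.32 ± 0.13, edgeR, adjusted p = 0.0679), which it passed without SFRP5 library 1 (0.0175).

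Neither effector was called. Bax had 92.4, 102.8 and 93.6 CPM with IL-1β and SFRP5, against 90.8, 92.4 and 84.7 CPM with IL-1β alone. The lowest library with SFRP5 was just above the highest without it, and the log2 change of 0.11 ± 0.05 missed the threshold (edgeR, adjusted p = 0.116). Bak1 had 28.8, 30.4 and 29.6 CPM with SFRP5, against 32.6, 36.4 and 30.5 CPM with IL-1β alone, a log2 change of −0.17 ± 0.07 (edgeR, adjusted p = 0.0959). Bak1 passed the threshold without IL-1β library 3 (log2 change −0.22, adjusted p = 0.0336).

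**Figure D3:**
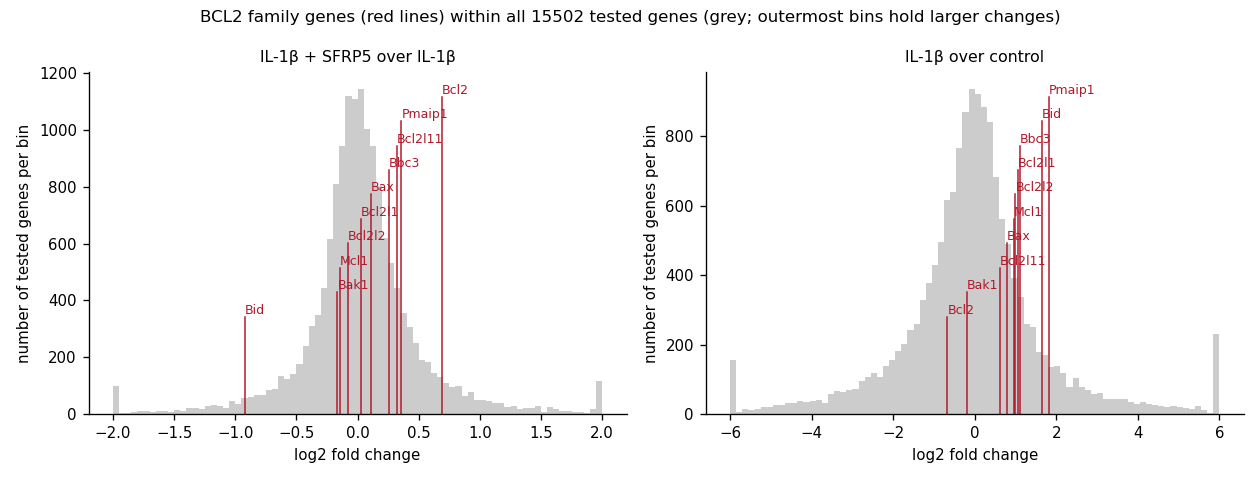
The log2 fold changes of all 15502 tested genes are drawn in grey as a histogram, with the number of genes per bin on the vertical axis and the BCL2 family genes as labelled red lines. For SFRP5 over IL-1β alone, Bid at −0.92 has 3.19% of all tested genes below it and Bcl2 at 0.69 has 93.1% below it. For IL-1β over control, 8 of the 10 lines lie right of 0, with Pmaip1 at 1.81 farthest.

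The third comparison set IL-1β with SFRP5 against control and shares its libraries with the other comparisons. The same 8 genes that were higher with IL-1β alone were higher here, Bak1 was lower, and Bcl2 was not called. In all 9 of the 10 were called, against 76.3% of all tested genes, 37.3% higher and 39% lower. Called and at least 2-fold changed were 3, all higher, against 36.2% of all tested genes in either direction, 17.2% higher and 19% lower. The libraries did not overlap for 9 of the 10, against 78.2%. Bcl2 was at 6.11 ± 1.13 CPM with IL-1β and SFRP5 and 6.07 ± 0.329 CPM in control (SD, n = 3 each), a log2 difference of 0.02 with a 95% interval from −0.32 to 0.35 (edgeR, adjusted p = 0.936). Bid was at 13.9 ± 0.960 CPM with IL-1β and SFRP5 and 8.39 ± 0.376 CPM in control, a log2 change of 0.73 ± 0.10 (edgeR, adjusted p = 3.92e-07). Pmaip1 was 4.50-fold and Bbc3 2.59-fold higher than in control, and Bak1 was at 0.780 of its control level (edgeR, adjusted p = 8.00e-05).

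Summed by role and per length, the pro-survival transcripts amounted to 107.1 to 109.6 RPKM with IL-1β and SFRP5, 111.3 to 118.3 RPKM with IL-1β alone and 57.3 to 60.4 RPKM in control libraries. The effectors amounted to 70.6 to 77.8, 66.4 to 73.8 and 47.9 to 49.6 RPKM in the same groups, and the BH3-only genes to 30.04 to 32.9, 27.7 to 31.9 and 11.2 to 13.4 RPKM. In each of these sums the libraries with IL-1β, with or without SFRP5, stood above all control libraries. The sum of the BH3-only genes overlapped between IL-1β with and without SFRP5, yet its make-up differed. Bid made up 12.5 ± 1.20% of it with IL-1β and SFRP5, 24.7 ± 0.894% with IL-1β alone and 19.2 ± 2.62% in control, while Bbc3 made up 68.4 ± 2.10%, 59.6 ± 1.23% and 66.4 ± 3.28%. Bcl2 was a minor part of the pro-survival sum in every group, at 0.614 ± 0.106%, 0.358 ± 0.0846% and 1.13 ± 0.0456%. These sums are given as a description, with no test, and leave out family genes beyond the 10. The BH3-only gene Bad was at 6.80, 6.06 and 9.38 RPKM in the same order of groups, in control above Bbc3. Bmf was at 0.102, 0.0828 and 1.85 RPKM, and Hrk, with few counts, at 0.106, 0.103 and 0.0437 RPKM. The shares of Bid and Bbc3 are thus of the 4 genes only.

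**Figure D4:**
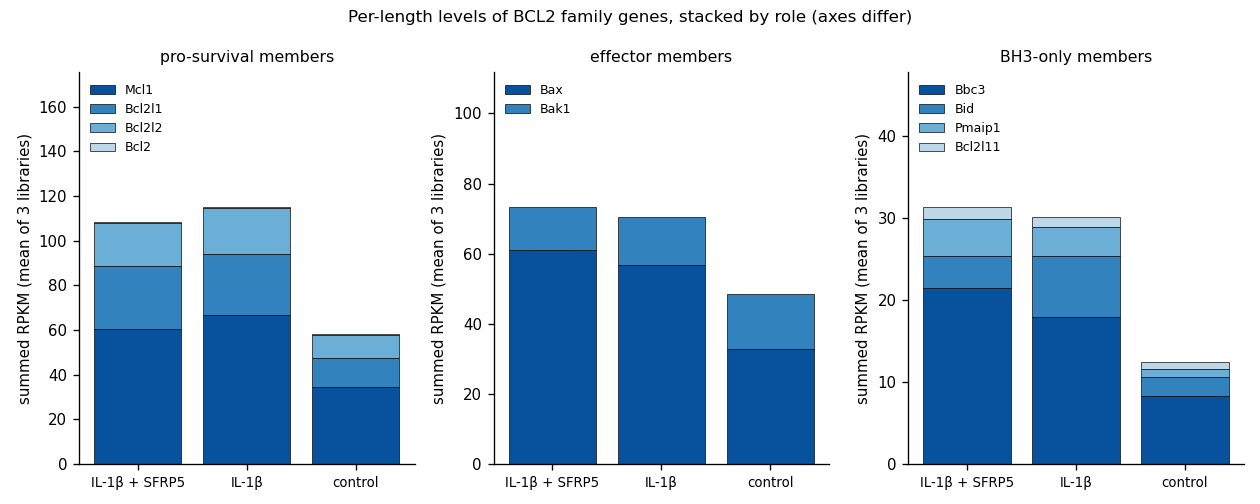
Stacked bars show the mean RPKM of 3 libraries for each of the 10 genes, summed by role. Axes start at 0 and differ between panels. The BH3-only bars reach 31.4 RPKM with IL-1β and SFRP5 and 30.1 RPKM with IL-1β alone, with a smaller part from Bid and a larger one from Bbc3 in the bar with SFRP5.

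The ratio of Bax to Bcl2 transcripts is often used as a summary of the balance between an effector and its inhibitor. Per length it was 88.5, 119.2 and 74.97 in libraries with IL-1β and SFRP5, 114.3, 197.0 and 121.8 in libraries with IL-1β alone, and 48.6, 51.4 and 48.8 in control libraries. The mean was 94.2 ± 22.7 with IL-1β and SFRP5, 144.4 ± 45.8 with IL-1β alone and 49.6 ± 1.55 in control (SD, n = 3 each). Libraries with and without SFRP5 overlapped in this ratio, and both groups lay above control. The highest value, in IL-1β library 2, rests on 45 counts of Bcl2.

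Some other genes of the family changed more than these 10, in both directions. Of 15 listed, 9 were tested, and with IL-1β against control 4 rose and 4 fell, against 38.5% higher and 40.4% lower over all tested genes. The median of the 9 log2 changes was 0.40. Bnip3 and Bnip3l, mitochondrial proteins of the hypoxia response that mark mitochondria for autophagy, reached 1493 and 779.3 CPM with IL-1β, against 163.9 and 87.6 CPM in control. Their log2 changes were 3.19 ± 0.04 and 3.15 ± 0.04 (edgeR, adjusted p = 1.24e-28 and 3.65e-28). Bmf, a BH3-only gene that senses detachment from the matrix, had 22 counts over the IL-1β libraries, against 597 over the control libraries, a log2 change of −4.45 ± 0.24 (edgeR, adjusted p = 6.58e-15). Bcl2l12 fell by 0.92 on the log2 scale (adjusted p = 3.18e-05). Bcl2l15 had 45 counts with IL-1β, against 3 in control, all of them in control library 2, which is 18.3 times as many per library size (5.87 to 92.0, exact 95% bounds for counting error alone).

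With SFRP5 added to IL-1β, 3 of these 9 genes fell and 0 rose, against 15.7% lower and 15.6% higher over all tested genes, and the median was −0.13. Bnip3 and Bnip3l each fell by 0.13 on the log2 scale (edgeR, adjusted p = 0.00808 and 0.00995), and the call of Bnip3l was lost without SFRP5 library 3 (0.0668). Bcl2l15 had 14 counts with SFRP5, against 45 with IL-1β alone, a log2 change of −1.70 ± 0.56 (edgeR, adjusted p = 0.0216). That call was lost without IL-1β library 1 (0.0741) or 3 (0.0588), without SFRP5 library 1 (0.126) or 3 (0.0965), and in DESeq2 (0.0513). Bmf stayed low, with 28 counts over the libraries with SFRP5, and was not called against IL-1β alone (edgeR, adjusted p = 0.641). With IL-1β and SFRP5 against control, 4 rose and 4 fell, where 37.3% of all tested genes were higher and 39% lower.

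A list of 17 genes held channels and other proteins of the mitochondrion together with the caspases and nucleases that act after its membrane is opened. With IL-1β 7 of the 17 rose and 7 fell, against 38.5% higher and 40.4% lower over all tested genes, and the median was −0.07. Vdac1, a channel of the outer mitochondrial membrane, was at 771.3 CPM with IL-1β and 191.5 CPM in control, a log2 change of 2.01 ± 0.04 (edgeR, adjusted p = 2.38e-24), and the executioner caspase gene Casp6 rose by 1.40. Dffa, the inhibitor of the DNA-cutting nuclease, fell by 0.98 on the log2 scale. Casp9, the initiator caspase of this pathway, was at 8.25 CPM with IL-1β and 13.7 CPM in control (edgeR, adjusted p = 1.74e-05), and its partner Apaf1 at 31.1 and 32.4 CPM was not called (adjusted p = 0.438).

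With SFRP5 added to IL-1β, 1 of these 17 genes rose and 2 fell, where 31.3% of all tested genes were called, and the median was −0.04. Vdac3, another channel of the outer membrane, was at 177.7 CPM with IL-1β and SFRP5 and 281.9 CPM with IL-1β alone, against 132.1 CPM in control. Like Bid it lay between IL-1β and control, with a log2 change of −0.67 ± 0.05 against IL-1β alone (edgeR, adjusted p = 1.2e-11), and the call held in all 16 alternative settings. Endog, a mitochondrial nuclease, was 0.30 ± 0.11 higher on the log2 scale (edgeR, adjusted p = 0.035). That call was lost when any 1 of the 6 libraries with IL-1β was left out (0.0526 to 0.0868), in DESeq2 (0.0852) and without the low-count filter (0.0755). Htra2, a protease released with cytochrome c, fell by 0.27 (edgeR, adjusted p = 0.0243). It was not called without IL-1β library 1 (0.0603) or 3 (0.106), or without SFRP5 library 1 (0.139) or 3 (0.0767). The list's count of 3 calls was 1 without SFRP5 library 1. Against control, 6 genes of this list rose and 8 fell with IL-1β and SFRP5, where 37.3% of all tested genes were higher and 39% lower.

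**Figure D5:**
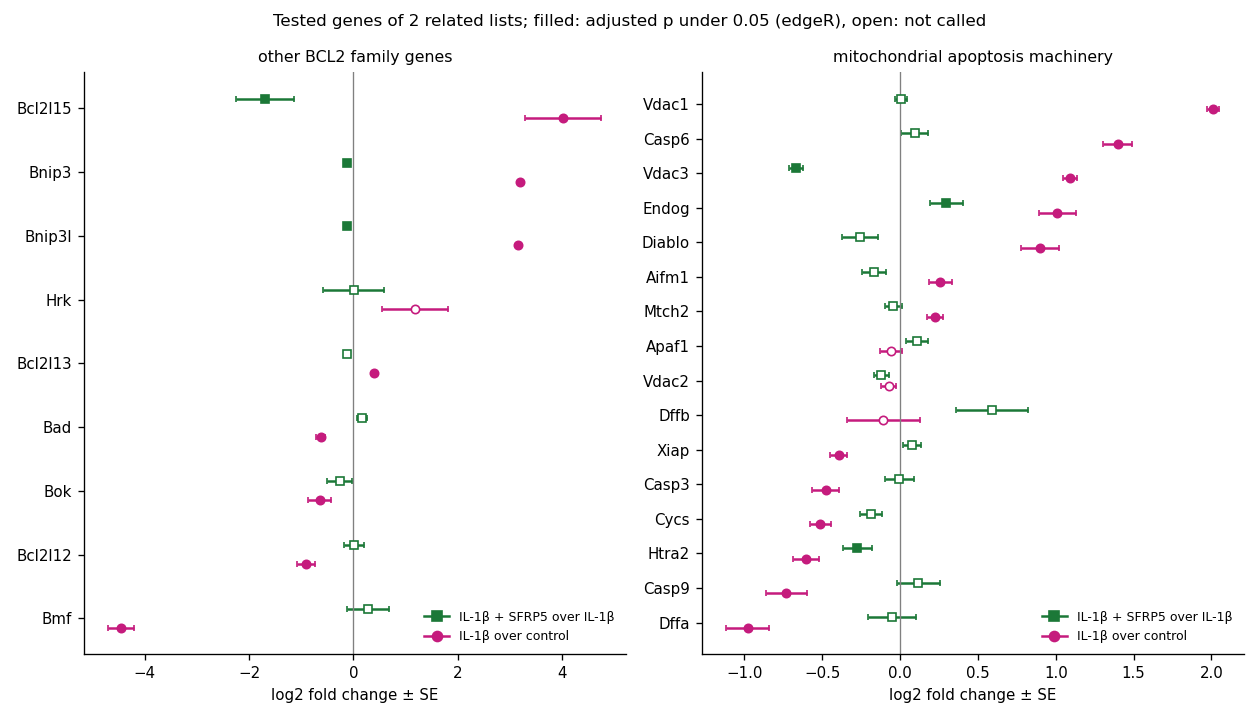
The log2 fold change ± SE of tested genes is on the horizontal axis for other BCL2 family genes (left) and for the mitochondrial apoptosis machinery (right), with squares for SFRP5 over IL-1β alone and circles for IL-1β over control. Circles spread from −4.45 (Bmf) to 4.02 (Bcl2l15). Most squares lie near 0, apart from Bcl2l15 at −1.70, Vdac3 at −0.67 and Dffb at 0.59, which was not called.

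Bid is the point at which death receptors reach the mitochondrion, and 8 genes of that arm were tested. With IL-1β 6 of them rose and 0 fell, against 78.9% of all tested genes called and 38.5% higher, and the median was 0.73. Cflar, whose protein FLIP blocks caspase-8, was at 106.1 CPM with IL-1β and 39.98 CPM in control, a log2 change of 1.41 ± 0.06 (edgeR, adjusted p = 7.99e-18), and the TRAIL receptor gene Tnfrsf10b rose by 0.97. With SFRP5 added, 2 rose and 2 fell, where 15.6% of all tested genes were higher and 15.7% lower, and the median was −0.03. The receptor genes Tnfrsf1a and Fas rose by 0.40 ± 0.04 and 0.33 ± 0.09 (edgeR, adjusted p = 3.44e-08 and 0.00528), and Cflar fell by 0.29 ± 0.05 (adjusted p = 0.000116). Casp8, whose product cleaves BID, fell by 0.26 ± 0.09 (edgeR, adjusted p = 0.0378). It was not called without IL-1β library 1 (0.112) or 2 (0.084), without SFRP5 library 1 (0.138) or 2 (0.0616), in DESeq2 (0.0668) or without the low-count filter (0.0694). Against control, 6 of the 8 rose and 1 fell with IL-1β and SFRP5, where 37.3% of all tested genes were higher and 39% lower.

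Genes that act upstream of the family were also followed. Of 9 tested, 4 rose and 2 fell with IL-1β, against the same 38.5% higher and 40.4% lower over all tested genes, and the median was 0.02. Mdm2, a p53 target that also restrains p53, was at 330.6 CPM with IL-1β and 104.9 CPM in control, a log2 change of 1.66 ± 0.05 (edgeR, adjusted p = 5.28e-20). Foxo3, a forkhead factor known to drive Bcl2l11 and Bbc3, rose by 1.17 ± 0.05 (edgeR, adjusted p = 1.23e-17). Fbxw7, part of a ubiquitin ligase for MCL1, fell by 0.37 on the log2 scale. Ddit3, the stress factor CHOP, fell by 0.27, or by 0.42 with upper-quartile scaling. The deposited counts hold 2 entries named Ddit3. Values here are of the entry with more counts, and the other is not reported. Huwe1, also listed for its part in MCL1 turnover, rose by 0.27 ± 0.04, from 420.0 to 504.8 CPM (edgeR, adjusted p = 7.22e-07). Trp53, which encodes p53, was at 69.3 CPM with IL-1β and 68.7 CPM in control and was not called (edgeR, adjusted p = 0.841).

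With SFRP5 added to IL-1β, 3 of these 9 genes rose and 3 fell, where 31.3% of all tested genes were called, and the median was 0.06. Ddit3 was at 184.4 CPM with IL-1β and SFRP5 and 149.5 CPM with IL-1β alone, a log2 change of 0.30 ± 0.05 (edgeR, adjusted p = 1.32e-05). E2f1, a cell cycle factor that can also induce BH3-only genes, rose by 0.29 ± 0.06 (edgeR, adjusted p = 0.000824). Usp9x, a deubiquitinase that stabilises MCL1, fell by 0.21 ± 0.04 (edgeR, adjusted p = 0.00016), and Huwe1 fell by 0.16 ± 0.04 (adjusted p = 0.00183). Trp53 fell by 0.17 (edgeR, adjusted p = 0.0276), a call lost without IL-1β library 2 (0.0809) or 3 (0.0532) or SFRP5 library 2 (0.205, log2 change −0.10). Against control, 5 of the 9 rose and 3 fell with IL-1β and SFRP5, where 37.3% of all tested genes were higher and 39% lower.

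In cells given IL-1β and SFRP5, Bnip3, Bnip3l and Bmf departed farther from control than any of the 10 genes. Their log2 changes were 3.06, 3.03 and −4.17, against 2.17 for Pmaip1, the largest of the 10. The other genes of the 4 lists named in this paragraph changed less than Pmaip1. Bnip3 was at 1368 CPM with IL-1β and SFRP5 and 163.9 CPM in control, and Bnip3l at 714.0 and 87.6 CPM, while Bmf was at 0.536 and 9.69 CPM and the BAX-like gene Bok at 1.87 and 3.54 CPM (edgeR, adjusted p at most 0.000664 for each). Among the mitochondrial and caspase genes Vdac1 rose by 2.01 and Casp6 by 1.49 on the log2 scale, and Dffa fell by 1.03. In the death receptor arm Fas rose by 1.19 and Cflar by 1.12, and Casp8 fell by 0.30 (edgeR, adjusted p = 0.00507). Upstream, Mdm2 rose by 1.71 and Foxo3 by 1.20, and Usp9x fell by 0.19, or by 0.33 with upper-quartile scaling. Huwe1 rose by 0.10 ± 0.04 (edgeR, adjusted p = 0.0162). Fbxw7 fell by 0.20 (edgeR, adjusted p = 0.0373) and by 0.34 with upper-quartile scaling. That call was lost in 10 of the 16 alternative settings, among them those without control library 2 (0.218), SFRP5 library 1 (0.0672) or 2 (0.215), any of the IL-1β libraries (0.0635 to 0.0668), and in DESeq2 (0.0961).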

How the data were processed

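RNA was sequenced as 150 bp paired-end reads from a directional library kit, trimmed with fastp, aligned to mouse mm10 with STAR and quantified with RSEM, per the labels' protocols. The authors deposited 1 table of whole-number counts per gene, unscaled, for 9 libraries. RSEM estimates need not be whole, and how these were rounded, the annotation release and the strand setting are not given in the sources used here. Columns were matched to samples by letter and last digit; the digits before it in the names of the SFRP5 libraries are not explained. The gene positions in the table differ from those of build mm10 annotation, so none is printed.

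Genes passing edgeR's filterByExpr were tested with edgeR 4.0.16 (R 4.3.3): TMM factors, 1 mean per group, 1 quasi-likelihood fit over all 9 libraries, Benjamini-Hochberg adjustment over 15502 genes, threshold 0.05. The common biological coefficient of variation was 4.97%. CPM uses TMM-corrected library sizes, and 3 counts in 1 library equal 0.135 to 0.195 CPM. RPKM divides CPM by the deposited gene length in kilobases, so an error in a length shifts levels between genes but not between groups. SE is the log2 change divided by the root of its F statistic. Intervals of log2 changes rest on that SE. Exact bounds of a count ratio and the 3-count floors cover counting error only, since amplified reads are not independent molecules. Alternatives were RLE and upper-quartile factors, no low-count filter, DESeq2 1.42.0, the 6 libraries compared alone, robust dispersions, the replicate number as a block, and leaving out each library. The fits were also run on simulated counts in which a small share of genes was changed, by the same folds in both treated groups. Far fewer genes were changed there than were called here with IL-1β, and the treated groups did not differ. Scaling under broad change and recovery of an SFRP5 effect were therefore not tested. Within groups, libraries differed by 2.20 to 4.79 chi-square per gene, where sampling alone gives about 1. None was therefore counted as a repeat sequencing of another library. This value cannot tell separate cultures from separate preparations of 1 culture.

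All 10 genes are named. From each of 4 lists, the 2 called genes with the largest rise and the 2 with the largest fall per comparison are named. A few others were named after their values were seen. These were Bnip3l with IL-1β, Bnip3 with SFRP5, Bad, Hrk and the genes without counts, Bcl2l13 and Casp9. Apaf1, Dffb, Huwe1, Bmf with SFRP5 and Trp53 with IL-1β were also named in this way. 1 gene of these lists is counted but not reported here by name. The members, lists and motifs were chosen with earlier results of these data known.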

Additional observations from a re-analysis of the deposited data

How the results depend on the processing

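Over 30 log2 changes of the 10 genes (3 comparisons), 458 of 480 alternative values kept their direction and their side of the threshold, 15 lost the call, 2 gained it and 5 changed sign. The sign changes were of values near 0 that were never called: Bcl2 with IL-1β and SFRP5 against control was −0.12 with upper-quartile factors, −0.003 with the replicate block, −0.03 without control library 2 and −0.11 without SFRP5 library 3, and Bcl2l1 with SFRP5 against IL-1β alone was −8e-04 without IL-1β library 3. Leaving out 1 library at a time, the first ranged from −0.11 to 0.15 and the second from −8e-04 to 0.052. Of 672 alternative values of the genes named by size of change from the 4 lists, 635 stayed the same in this sense, 37 lost the call and 0 changed sign. Upper-quartile factors moved the median log2 change of all genes by −0.15 for IL-1β and −0.13 for IL-1β with SFRP5, both against control, and the count of members changed at least 2-fold with IL-1β was then 2 rather than 4.

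Leaving out 1 library at a time, the count of members called with SFRP5 against IL-1β alone ranged from 3 to 5, with 3 without IL-1β library 2 or SFRP5 library 3. The count for the mitochondrial machinery ranged from 1 to 4 and was 5 with RLE factors. Without scaling by length, the Bax to Bcl2 ratio was 16.2 with IL-1β and SFRP5, 24.85 with IL-1β and 8.53 in control (the same factor in every library). Leaving out 1 library of the group, the per-length ratio ranged from 81.8 to 103.9 with IL-1β and SFRP5, 118.0 to 159.4 with IL-1β and 48.7 to 50.1 in control; these ranges and the 2-fold counts of members were chosen after seeing the data.

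Same-numbered libraries of different groups did not deviate together (correlations of −0.036 to 0.04 across genes), so no pairing by number was seen. A small shared effect could be missed by such correlations. With the replicate block, 10, 5 and 9 members were called in the 3 comparisons, as without it. The thinnest counts of the 10 genes were 45 to 76 per library for Bcl2 with IL-1β and 44 to 62 for Pmaip1 in control.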

Other observations

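Several family genes were at or near 0 in these cultures. Bcl2a1a and Bcl2a1d, pro-survival genes of blood cells known as targets of NF-κB, had 1 count each over the 3 IL-1β libraries, and Bcl2a1b had 0 counts in all 9 libraries. These copies are nearly identical, so reads could have been divided among them. Bik and Bcl2l10 had 0 counts in all 9 libraries, where 3 counts would equal 0.135 to 0.195 CPM. Hrk, a BH3-only gene of neurons, had 31 counts with IL-1β and SFRP5, 30 with IL-1β and 16 in control and was not called in any comparison (edgeR, adjusted p = 0.0933 to 0.997).

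The profiles nearest to the 3 members with the largest range of group means were found by the root mean square difference of centred log2 CPM over 9 libraries. For Pmaip1, with a range of 2.14, they were Itga7, an integrin subunit gene, at 0.10 and A230103J11Rik at 0.12. For Bid, with a range of 1.64, they were Cyb5a, a cytochrome b5 gene, at 0.08 and the transporter gene Abcc4 at 0.10. For Bbc3, with a range of 1.38, they were R74862 and the cathepsin gene Ctsf, both at 0.10. Within 0.2 lay 67 genes for Pmaip1, 43 for Bid and 302 for Bbc3.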
